A study of Solanum lycopersicum with 10 samples.

Results

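KNOX and BELL homeobox genes encode transcription factors of the TALE class, and 8 tomato loci of these families were examined of 35767 loci in the expression table. They are the 4 class I KNOX loci TKN1 (Solyc04g077210), TKN2 (Solyc02g081120), TKN3 (Solyc05g005090) and TKN4 (Solyc01g100510), the class II KNOX loci Solyc07g007120 and Solyc12g010410, PETROSELINUM (Solyc06g072480) and the BELL locus BIPINNATA (Solyc02g089940). Members were chosen by identifier from literature on the families, and all 8 were present in the table. The table carries no gene names. RefSeq's tomato gene table does not list these identifiers, but 6 of the 8 have a gene of the matching name on the chromosome numbered in the identifier; Solyc12g010410 and BIPINNATA do not. For Solyc07g007120 that gene is T12, also known as LeT12.

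Class I KNOX proteins keep cells of the shoot meristem undifferentiated, and in tomato they are also active in young leaf primordia, where they promote the branching of the blade into leaflets. Auxin marks the sites of new leaflets and leaves, and high auxin activity is generally associated with low class I KNOX activity. Class II KNOX proteins are known from Arabidopsis to promote differentiation and to oppose class I proteins in leaves. BELL proteins are the dimer partners of KNOX proteins. PETROSELINUM encodes a truncated KNOX protein that lacks the homeodomain and competes for BELL partners, and BIPINNATA encodes a BELL partner that restrains leaf complexity.

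The loci were measured in line M82 in 10 libraries made with a 3′ end kit, in 2 experiments with separate mock controls. Root libraries came from the terminal 1 cm of seedling roots, raised at 22 °C in continuous light and moved at day 4 after germination either to mock conditions (n = 2) or to 1 µM 2,4-D (n = 2), a stable auxin analog, for 3 h. Leaf libraries came from primordia of leaf 5 at stage P5, 15 of them collected, from greenhouse plants aged 3 weeks and sprayed with mock (n = 3) or with 1 µM picloram (n = 3), another auxin analog, for 3 h. Nothing states that replicates came from separate plantings, so p-values measure the spread between these samples, which may be technical.

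Library totals ran from 2.83 to 2.96 M normalized counts in root and from 1.83 to 2.06 M in leaf. A normalized count is taken below as about 1 read, which was not measured. The medians of 0.785 to 1.22 per library were taken only over values already near 1 and cannot show it. On that reading most class I values below rest on a handful of reads, and their differences carry large counting error. The 7 leaf markers, Rubisco small subunit and light-harvesting loci, summed to 6511 to 13024 normalized counts in leaf and 12.7 to 87.8 in root. The 3 root markers for iron uptake summed to 149 to 217 in root and 0 to 10.8 in leaf, with 2 of the 3 at 0 in both mock root libraries. The root sum was that of FER alone, apart from 1.22 of IRT1 in 2,4-D root library 2. FRO1 went the other way, at 0 in every root library and at 1.21 in mock leaf library 2 and 3.10 in picloram leaf library 3. In root, the libraries numbered 2 stood apart from those numbered 1 by their leaf marker sum, at 75.6 (mock) and 87.8 (2,4-D) against 16.5 and 12.7. Rubisco locus Solyc03g034220 held most of that gap, at 48.8 and 47.8 against 4.23 and 5.22. Both other Rubisco loci were also higher in the libraries numbered 2. The light-harvesting loci went both ways in mock root, where Solyc02g071010 (2.32 against 2.68) and Solyc03g005760 (4.62 against 5.31) were lower in library 2. On 2,4-D none of them was lower in library 2. Calls at the minimum of 10 that rest on root libraries are therefore also given without both libraries numbered 2. Both shoot meristem markers, WUSCHEL and CLAVATA3 loci, were listed at 0 in 9 of the 10 libraries, and their sum was 1.03 in picloram leaf library 3. Because the samples are bulk tissue, fewer cells of a type and less RNA per cell cannot be told apart.

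**Figure D1:**
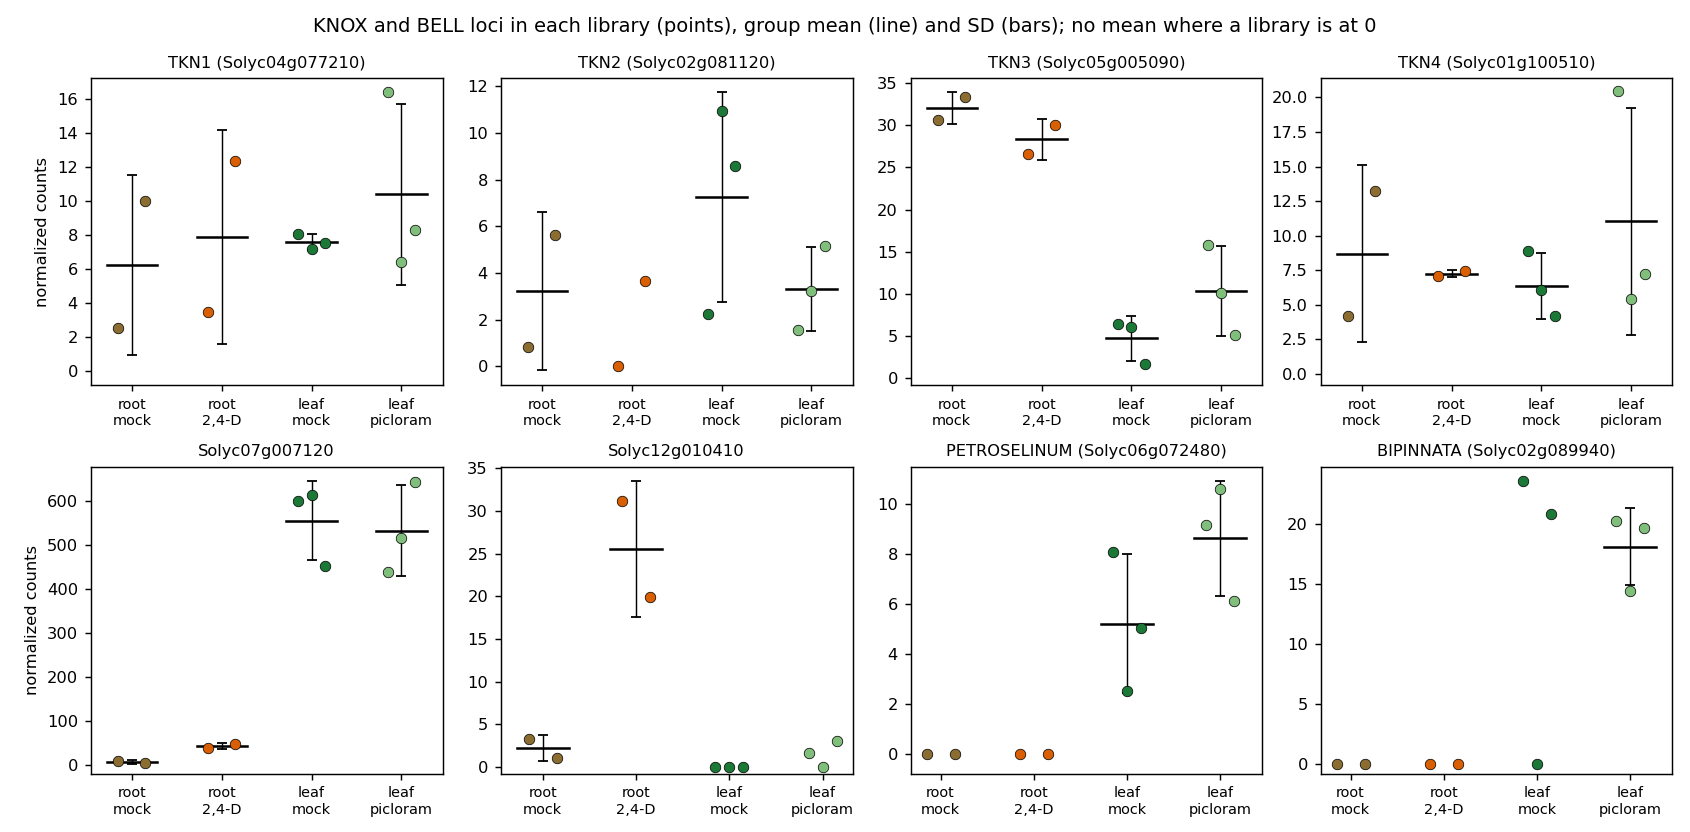
Normalized counts (vertical axis, linear, a separate scale per panel) of the 8 KNOX and BELL loci in the 4 groups. Points are libraries, lines are group means and bars are SD, with no mean where a library is listed at 0; Solyc07g007120 lies between 439.7 and 643 in leaf and between 4.44 and 48.1 in root, and TKN3 lies between 26.6 and 33.4 in root and between 1.66 and 15.9 in leaf.

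The class II loci were the members with the clearest auxin response, and they showed it in root. Solyc07g007120 had 10.1 and 4.44 normalized counts in the mock root libraries, and 38.2 and 48.1 on 2,4-D. Both treated values lay above both mock values, and taken by replicate number, which is not shown to pair libraries, the difference was 1.82 on the log2 scale for number 1 and 3.17 for number 2. The group means were 7.27 ± 4.00 and 43.2 ± 6.96 (SD, n = 2 each). The log2 fold change, on log2(value + 1) throughout, was 2.50 ± 0.30 (SE, limma, Benjamini-Hochberg adjusted p = 0.000593), with a 95% interval of 1.84 to 3.15. Of 12664 loci tested in root, 203 had a higher fold change.

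Solyc12g010410 had 3.28 and 1.10 normalized counts in mock root, against 31.2 and 19.9 on 2,4-D. Again both treated values exceeded both mock values. Its log2 fold change was 3.11 ± 0.62 (SE, limma adjusted p = 0.0127), with a 95% interval of 1.76 to 4.46, and 129 loci had a higher one. The rise was 2.91 within number 1 and 3.32 within number 2.

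These were 2 of the 3 members tested in root; a locus was tested in a tissue if 2 or more of its libraries held 10 normalized counts or more, and called at an adjusted p under 0.05 over all loci tested. The background in root was 4.68% of loci called in either direction and 3.59% that rose. Neither class II locus reached the minimum in both mock libraries, so both entered through their 2,4-D values, an entry that favours a rise, and their count is not set against the background. With both root libraries numbered 2 left out, which leaves 1 library per root group, neither was called: Solyc07g007120 had a log2 fold change of 1.82 (adjusted p = 0.0660) and Solyc12g010410 one of 2.91 (adjusted p = 0.271). Leaving out any single library kept the call of Solyc07g007120 (adjusted p up to 0.0203). The call of Solyc12g010410 ended without mock root library 2 (adjusted p = 0.108), and, where it was kept among the loci tested, without 2,4-D library 1 (adjusted p = 0.117) or 2 (adjusted p = 0.0540).

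The leaf marker sum moved with replicate number in root and not with treatment, at 16.5 and 75.6 in mock against 12.7 and 87.8 on 2,4-D. Solyc07g007120 was lower in library 2 than in library 1 in mock root (4.44 against 10.1) and higher in library 2 on 2,4-D (48.1 against 38.2). The part of the leaf marker sum in its root values was not tested.

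In leaf primordia Solyc07g007120 was abundant in every library and no response to picloram was called. Mock libraries held 600.0, 615 and 453 normalized counts and picloram libraries 439.7, 516 and 643, and the groups overlapped throughout. The means were 556 ± 89.4 and 533 ± 103 (SD, n = 3 each). The log2 fold change was -0.07 ± 0.24 (SE, limma adjusted p = 0.908), and its 95% interval of -0.59 to 0.46 does not reach a halving or a doubling on this scale. Its sign is not settled, since the value was 0.02 with equal library totals and 0.04 after quantile normalization.

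The root response of Solyc07g007120 exceeded its leaf response by 2.56 ± 0.38 on the log2 scale (SE, limma adjusted p = 0.00152), where 4.29% of 11313 loci were called. The locus entered this test too through its 2,4-D root values, an entry that favours a larger root response, so this difference is not set against that share. That difference was called under each of 29 alternatives (adjusted p up to 0.0145), among them the omission of both root libraries numbered 2 (1.89). Tissue, compound, plant age and mode of application all differ between the experiments, and their parts in this difference cannot be told apart. Even on 2,4-D, root values of 38.2 and 48.1 stayed far below the lowest leaf value of 439.7.

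Solyc12g010410 followed another course in leaf, where it was listed at 0 in all 3 mock libraries and at 1.58, 0 and 3.06 under picloram. It was not tested there, and these values amount to a few reads. Solyc12g010410 as a percentage of Solyc07g007120 was 24.8% and 32.5% in the mock root libraries, 41.4% and 81.5% on 2,4-D, and at most 0.476% in leaf. All 6 leaf libraries thus lay below all 4 root libraries in this ratio. Salmon, which the submitters name, can divide reads among near-identical copies, and whether the members share reads with other loci was not tested.

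**Figure D2:**
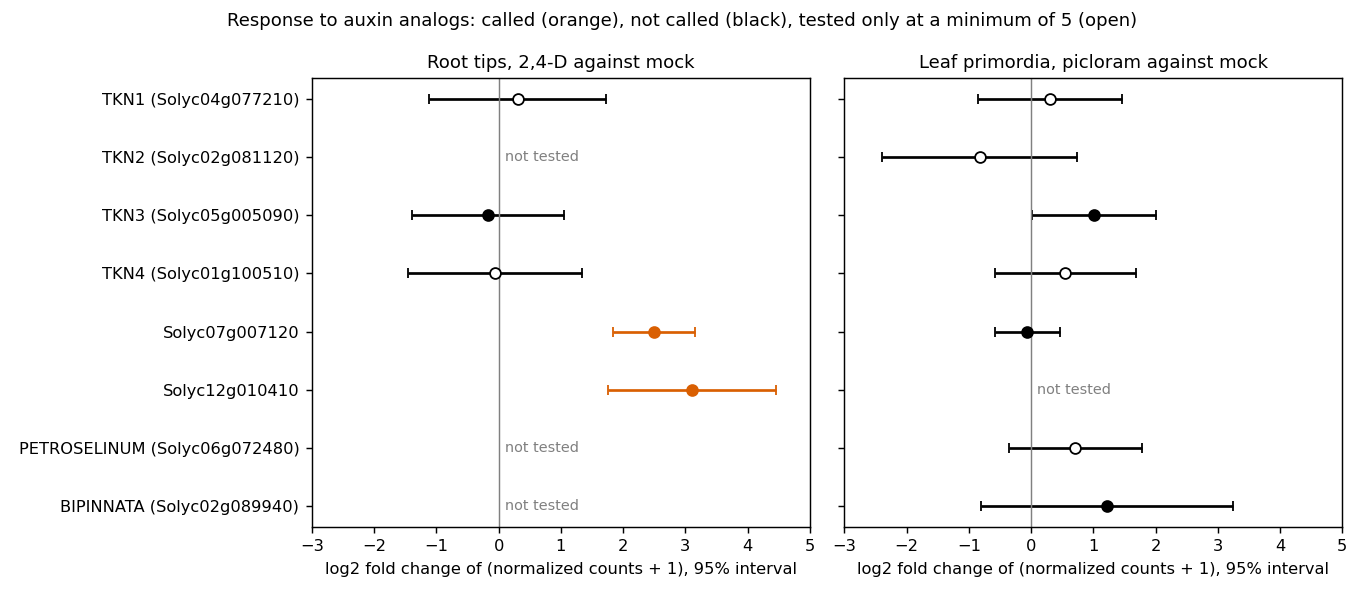
Log2 fold changes of normalized counts + 1 (horizontal axis) with 95% intervals for each locus, in root (left) and leaf (right). Orange points were called, black points were not, and open points were tested only where the minimum was lowered to 5; the class II loci stand at 2.50 and 3.11 in root, and no interval in leaf belongs to a called locus.

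TKN3 was the class I member with the highest level in root, and it was the only class I locus tested at the minimum of 10. Its values were 30.7 and 33.4 normalized counts in mock root and 26.6 and 30.1 on 2,4-D, so both treated values lay below both mock values. The log2 fold change in root was -0.17 ± 0.56 (SE, limma adjusted p = 0.928), with a 95% interval of -1.39 to 1.05, which holds 2-fold changes in either direction. That interval uses a spread shared with leaf, where the TKN3 values varied more. With root fitted alone the SE was 0.26 (limma adjusted p = 0.746). Without both libraries numbered 2 the fold change was -0.20. In leaf TKN3 stood at 6.44, 6.11 and 1.66 in mock and at 15.9, 10.1 and 5.14 under picloram. Taken by number, which is not shown to pair libraries, picloram exceeded mock by 1.18, 0.65 and 1.21 on the log2 scale. The 2 highest leaf values were picloram libraries, but picloram library 3 lay below 2 of the mock libraries. The log2 fold change was 1.01 ± 0.46 (SE, limma adjusted p = 0.191; unadjusted p = 0.0463), which was not called. It reached the minimum in leaf through picloram libraries 1 and 2 only, an entry that favours a rise, and without picloram library 1 the value was 0.67 with the locus kept among those tested.

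In leaf, 0 of the 3 tested members were called by limma, against a background of 10.4% of 14410 loci. Of the 3, TKN3 alone had an unadjusted p under 0.05, as had 25% of all loci tested. The difference of the TKN3 responses, root minus leaf, was -1.18 ± 0.74 (SE, limma adjusted p = 0.458) and was not called either.

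TKN1, TKN2 and TKN4 were detected at low levels in both tissues and did not reach the minimum of 10 in any comparison. TKN1 had 2.53 and 9.99 normalized counts in mock root, 3.46 and 12.3 on 2,4-D, 8.06, 7.17 and 7.52 in mock leaf, and 16.4, 6.43 and 8.30 under picloram. Each treated group spanned its mock group or overlapped with it. TKN2, the class I gene best known from the shoot meristem and for leaf complexity, stood at 0.847 and 5.61 in mock root, 0 and 3.67 on 2,4-D, 2.24, 10.9 and 8.58 in mock leaf, and 1.55, 3.22 and 5.15 under picloram. TKN4 stood at 4.17 and 13.2 in mock root, 7.05 and 7.42 on 2,4-D, 8.91, 6.07 and 4.18 in mock leaf, and 20.5, 5.45 and 7.23 under picloram. The treated and mock values of TKN2 overlapped in both tissues, as did those of TKN1 and TKN4. Replicate numbers are not shown to pair libraries. Taken by number, treated minus mock for TKN2 was -0.88 and -0.50 on the log2 scale in root, and -0.34, -1.50 and -0.64 in leaf. TKN1 and TKN4 went in both directions in leaf when taken by number. Other pairings turn the sign for TKN2, since picloram libraries 2 and 3 (3.22 and 5.15) lay above mock leaf library 1 (2.24). How many of all loci keep 1 sign by number was not counted, so the shared sign is no result about TKN2.

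With the minimum lowered to 5, a choice made after the values were seen, these loci could be tested and none was called. In leaf the log2 fold changes were 0.31 for TKN1 (95% interval -0.85 to 1.47), -0.83 for TKN2 (-2.39 to 0.74) and 0.55 for TKN4 (-0.58 to 1.68). In root they were 0.31 for TKN1 (-1.12 to 1.73) and -0.06 for TKN4 (-1.45 to 1.33), with limma adjusted p from 0.550 to 0.983 over these 5 tests. The intervals are wide enough to hold changes of 2-fold in at least 1 direction, so a missing call does not show that the loci held steady.

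Single libraries stood out for several class I loci at once. In picloram leaf library 1, TKN1, TKN3 and TKN4 each had their highest leaf value, at 16.4, 15.9 and 20.5, while TKN2 had its lowest, at 1.55. The summed class I level there was 54.3 normalized counts, against 21.9 to 30.3 in the other 5 leaf libraries. In root, all 4 class I loci were higher in library 2 than in library 1 of both groups, with sums of 62.2 against 38.2 in mock and 53.5 against 37.1 on 2,4-D. The root libraries numbered 2 are those with the higher leaf marker sum, whose part in this was not tested, and no shoot meristem marker was detected in any root library.

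**Figure D3:**
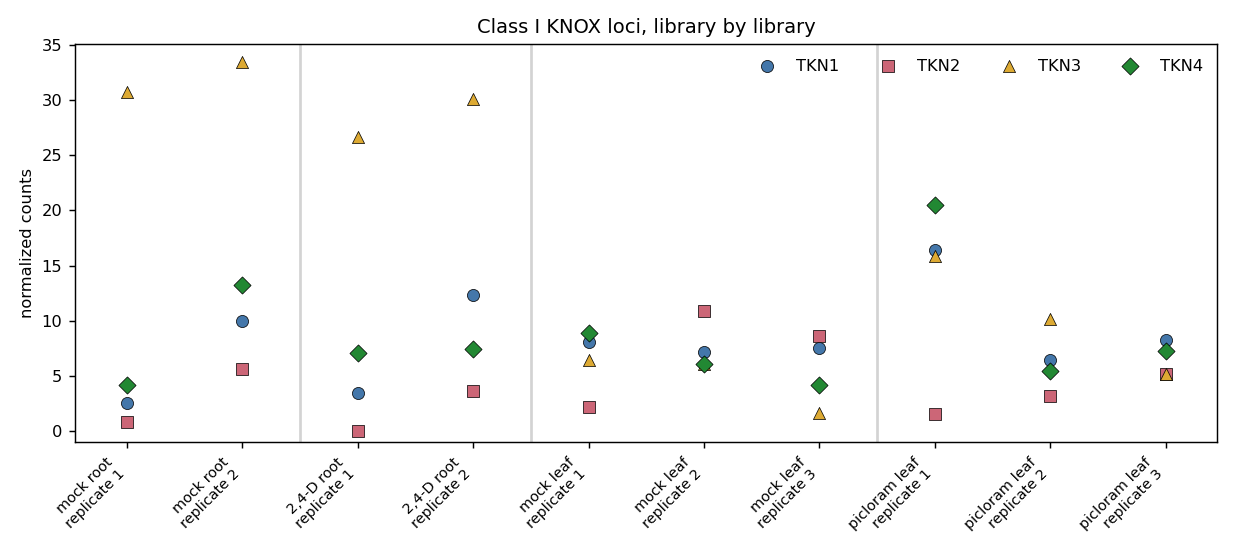
Normalized counts (vertical axis, linear) of the 4 class I KNOX loci in each of the 10 libraries (horizontal axis). TKN3 is at 26.6 to 33.4 in the 4 root libraries, and picloram leaf library 1 holds the highest leaf values of TKN1, TKN3 and TKN4.

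PETROSELINUM and BIPINNATA were seen in leaf and listed at 0 in all 4 root libraries. PETROSELINUM had 8.06, 2.51 and 5.04 normalized counts in mock leaf, and 9.17, 10.6 and 6.10 under picloram. Those groups overlapped, and with the minimum lowered to 5 the log2 fold change was 0.71 (95% interval -0.36 to 1.78, limma adjusted p = 0.432). BIPINNATA stood at 23.6, 0 and 20.9 in mock leaf and at 20.3, 14.5 and 19.7 under picloram. Apart from the 0 in mock leaf library 2, its leaf values were alike. With all libraries the log2 fold change was 1.22 ± 0.94 (SE, limma adjusted p = 0.471), and without mock leaf library 2 it turned to -0.29 (adjusted p = 0.750). An exact 0 can be a failed estimate, which was not tested for this value. In mock leaf library 2, 8 loci were listed at 0 that reached 10 in all 5 other leaf libraries, a number between 1 and 8 for the leaf libraries. Mock leaf library 1, where BIPINNATA stood at 23.6, also had 8 such loci.

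The untreated difference between the tissues was taken from the mock groups, where 62.5% of 15761 loci were called, 32.7% higher in root and 29.8% lower. Of the 8 members, 4 were tested, and 2 were called higher in root and 2 lower, a count that is no result about the members given that background. The class II loci were called in opposite directions. TKN3 was higher in root, at 32.0 ± 1.91 (SD, n = 2) against 4.74 ± 2.67 (SD, n = 3), by 2.67 ± 0.52 on the log2 scale (SE, limma adjusted p = 0.000790). Solyc07g007120 was lower in root by -6.15 ± 0.28 (SE, limma adjusted p = 1.05e-08), and 250 loci had a lower value. Among mock libraries, TKN3 reached the minimum in both root libraries and no leaf library. Solyc07g007120 reached it in 1 mock root and 3 mock leaf libraries. Entry through mock libraries thus favours these directions, although with treated libraries counted both loci reached the minimum in each tissue. Both calls held under each of 29 alternatives, with adjusted p up to 0.0358 for TKN3. Without both root libraries numbered 2 the values were 2.61 (adjusted p = 0.0358) for TKN3 and -5.64 (adjusted p = 2.59e-05) for Solyc07g007120.

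The other pair of calls was less stable. Solyc12g010410 was called higher in root (limma adjusted p = 0.030) at 3.28 and 1.10 against 0 in all 3 mock leaf libraries. No mock library of either tissue reached the minimum, and the locus entered through the 2,4-D root libraries, which are outside this comparison. That call ended in 11 of 27 alternatives, among them the omission of mock root library 1 (adjusted p = 0.225) or of any mock leaf library (adjusted p of 0.0542 to 0.0587), and it rests on a few reads. With both root libraries numbered 2 left out it held, at an adjusted p of 0.0485. BIPINNATA was called lower in root (limma adjusted p = 0.0259), where it was listed at 0; it entered the test through leaf libraries alone, an entry that favours lower values in root. That call ended without either mock root library (adjusted p up to 0.104), without mock leaf library 1 (0.0876 or 0.0882) or 3 (0.0904 or 0.0910), and with both root libraries numbered 2 left out (0.206), while without mock leaf library 2, where it is at 0, its adjusted p was 3.75e-06. PETROSELINUM, tested only at the minimum of 5, a choice made after its values were seen, was called lower in root (limma adjusted p = 0.000778). It too entered through leaf libraries alone, so both calls are given as descriptions only. For loci listed at 0 in a whole group no fold is given, because the fitted value depends on the pseudocount.

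Over all libraries of a tissue, 4 root against 6 leaf and treatment ignored, TKN3, Solyc07g007120 and PETROSELINUM did not overlap between tissues. Each had p = 0.00952 in an exact 2-sided permutation test on log2(value + 1), the smallest p that this design allows. How many of all loci do not overlap in this way was not counted, so the lack of overlap is no result about these members. The 62.5% of loci called between the mock groups is another measure, on fewer libraries, and does not stand in for that share. PETROSELINUM was listed at 0 in all 4 root libraries. The test treats mock and treated libraries of a tissue as alike, although the values of both class II loci differed between them in root. The mock root values of Solyc12g010410 (3.28 and 1.10) overlapped with its picloram leaf values (0 to 3.06), so its p below does not separate tissue from treatment. The exact permutation p was 0.0381 for Solyc12g010410 and 0.0476 for BIPINNATA. It was 0.200 for TKN2, 0.295 for TKN1 and 0.943 for TKN4, whose ranges overlapped. Without both root libraries numbered 2, which leaves 2 against 6, no p below 0.0714 is possible, and the exact permutation p was 0.0714 for 6 members, 0.214 for BIPINNATA and 0.429 for TKN4. These tests were added after the values were seen and are not adjusted for their number. With library totals made equal, the median of all loci moved by -0.53 on the log2 scale, root against leaf, and the share of calls higher in root went from 52.4% to 32.2%; TKN3 was then higher by 2.17 (adjusted p = 0.00352).

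**Figure D4:**
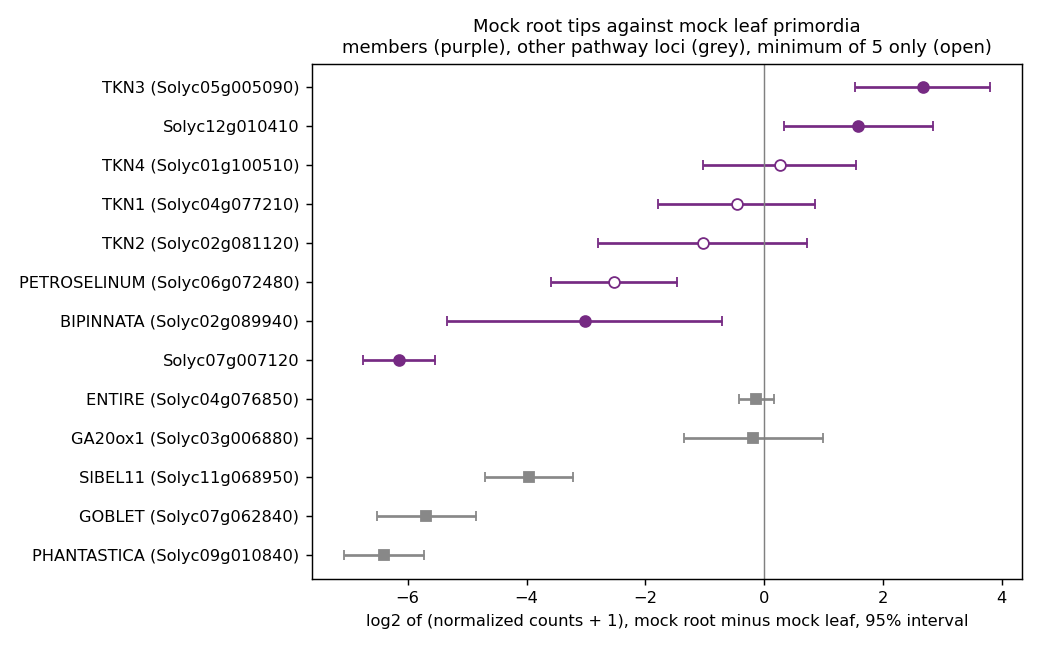
Difference of log2(normalized counts + 1), mock root minus mock leaf (horizontal axis), with 95% intervals, for the members (purple circles) and other loci of the pathway (grey squares). Open circles were tested only at the minimum of 5; TKN3 stands at 2.67 and Solyc07g007120 at -6.15, and the fitted values of loci listed at 0 in root depend on the pseudocount.

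The order of the 4 groups thus differed between members. For Solyc07g007120 it ran from mock leaf and picloram leaf, which overlapped, to 2,4-D root and then mock root, which did not overlap with each other. For TKN3 it ran from mock root (30.7 to 33.4) and 2,4-D root (26.6 to 30.1), which did not overlap but whose difference was not called (limma adjusted p = 0.928), to picloram leaf and mock leaf, which overlapped. For Solyc12g010410 2,4-D root stood above all other libraries, and mock root and picloram leaf overlapped. No order could be read for TKN1, TKN2 or TKN4.

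Among 15757 other loci, the locus whose centred log2 profile over the 10 libraries lay nearest to that of Solyc07g007120 was Solyc10g077040, with a root mean square difference of 0.339 against a median of 2.59. Its values were 13.3 and 11.0 normalized counts in mock root, 36.2 and 50.4 on 2,4-D, and 646 to 810.2 in leaf. Nearest to TKN3 was Solyc11g005460 (0.257, median 1.28), at 95.8 to 98.5 in root and 11.6 to 38.0 in leaf. Nearest to BIPINNATA was Solyc02g086350 (0.446, median 2.26), which was also listed at 0 in mock leaf library 2. A choice by nearest profile favours such a shared 0, so it is no separate observation.

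Other genes around KNOX function came from a list of 8 identifiers recalled from the literature, whose names the files do not pair. It holds 4 regulators of leaf form (PHANTASTICA, GOBLET, LANCEOLATE, ENTIRE), the BELL locus SlBEL11 and 3 gibberellin 20-oxidases, enzymes of gibberellin synthesis that class I KNOX proteins are known to repress. In root, where 4.68% of all loci tested were called and 3.59% rose, 1 of 1 tested rose, ENTIRE, by 0.96 ± 0.15 on the log2 scale (SE, limma adjusted p = 0.00262), a call that ended without 2,4-D library 1 (adjusted p = 0.0715) or without both root libraries numbered 2 (0.136). In leaf 0 of 5 were called by limma, against 10.4% of all loci tested, and 2 had an unadjusted p under 0.05, against 25% of all loci tested.

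The first of those, GOBLET (Solyc07g062840), a boundary gene of the NAC family, had 69.7, 72.2 and 80.2 normalized counts in mock leaf, and 33.5, 52.6 and 45.6 under picloram. The groups did not overlap, but the log2 fold change of -0.76 ± 0.34 (SE, limma adjusted p = 0.188) was not called; with leaf fitted alone it was (adjusted p = 0.0385). The gibberellin 20-oxidase Solyc03g006880 stood at 12.2, 10.8 and 14.5 in mock leaf and at 1.56, 9.79 and 6.22 under picloram. Those groups did not overlap either, and the log2 fold change was -1.20 ± 0.48 (SE, limma adjusted p = 0.136), which was not called. How many of all loci tested in leaf did not overlap was not counted, so the lack of overlap adds nothing to these tests. The leaf marker sum was itself lower under picloram, at 6511 to 8576 against 12218 to 13024 in mock, and its part in these values was not tested.

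PHANTASTICA (Solyc09g010840), a MYB repressor of KNOX genes, had a log2 fold change of -0.04 ± 0.27 in leaf (SE, limma adjusted p = 0.950), and SlBEL11 (Solyc11g068950) one of -0.32 ± 0.30 (SE, limma adjusted p = 0.579). ENTIRE (Solyc04g076850), an Aux/IAA repressor of auxin signalling, had 0.16 ± 0.12 in leaf (SE, limma adjusted p = 0.448). Between the mock groups, 3 of 5 tested loci of the list were lower in root: PHANTASTICA by -6.40, GOBLET by -5.69 and SlBEL11 by -3.96 (limma adjusted p of 1.67e-08, 1.89e-07 and 1.17e-06). Of all loci tested there, 62.5% were called and 29.8% were lower in root, so the count is no result about the list. All 3 entered the test through leaf libraries alone, an entry that favours lower values in root. Their root values were at most 1.12, 1.74 and 3.37 in that order, so the size of the differences depends on the pseudocount. These calls too are given as descriptions only. Without both root libraries numbered 2, which leaves 1 library per root group, the values were -6.49, -6.23 and -4.31. ENTIRE and Solyc03g006880 were not called there, although ENTIRE was called lower in root with equal library totals (-0.69) and after quantile normalization (-0.82). The sign of the PHANTASTICA value in leaf and of the Solyc03g006880 value between mock groups turned under other settings. LANCEOLATE and the gibberellin 20-oxidases Solyc06g035530 and Solyc11g072310 were not tested in any comparison, with no value above 5.87.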

How the data were processed

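Polyadenylated transcripts were measured in 10 libraries with a 3′ end kit, per the labels' protocols. The deposited table holds a non-negative signal per locus, counts that the authors had normalized between libraries; per the submitters' processing notes, Salmon 0.8.2 and DESeq2 were used, with no step assigned to either. For the genome build and annotation, nothing is stated (not given in the sources used here). The values are not whole, so no test on counts was run, and no length scaling was applied.

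From the table, log2(value + 1) was fitted with limma 3.58.1 (R 4.3.3), with a mean-variance trend and 1 mean per group over all 10 libraries (6 residual degrees of freedom). A locus entered a tissue's test if 2 or more of its libraries held 10 or more (both tissues for the difference of responses, either for mock root against mock leaf). P-values are 2-sided and Benjamini-Hochberg adjusted over all loci tested, and a locus was called under 0.05. Single values were compared with exact permutation tests (scipy 1.17.1). The fit was also run on simulated data, with changes planted only in loci of higher level and no difference between replicate numbers. That setting does not cover the low root values of the class II loci, and no result here rests on it.

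The members and lists were chosen with earlier results of these data known. All 8 members and the tested loci of the pathway list are named. Nearest profiles are given for the 3 members of highest mean level that reached the minimum in a tissue. Names were matched to the RefSeq gene table SLM_r2.1 by symbol and chromosome only. Alternatives covered the pseudocount, the minimum, scaling, a replicate block, each tissue alone and the omission of libraries. Sequences were not used here.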

Additional observations from a re-analysis of the deposited data

Results flagged for a closer look

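The response of Solyc07g007120 differed between the experiments: root minus leaf was 2.56 ± 0.38 on the log2 scale (SE, limma adjusted p = 0.00152), with a higher treated value in both root replicate numbers and log2 differences of -0.45, -0.25 and 0.50 within leaf numbers 1 to 3. The response of ENTIRE (Solyc04g076850) also differed, by 0.80 ± 0.19 (SE, limma adjusted p = 0.0297), a call that ended in 9 of 19 alternatives, among them the omission of any 1 root library or of picloram library 2 or 3 (adjusted p up to 0.193, the value without both root libraries numbered 2). Groups of 2 or 3 libraries are too small for a test of single outlying samples.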

How the results depend on the processing

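The number of members called was 2 in root, 0 in leaf, 1 for the difference of responses and 4 for mock root against mock leaf. With single libraries left out it ranged from 1 to 2 in root and from 2 to 4 for the mock groups, and with both root libraries numbered 2 left out it was 0 in root. Solyc12g010410 fell below the minimum in root without either 2,4-D library unless the loci tested were kept. The leaf fold change of Solyc07g007120 turned positive with equal library totals (0.021) and after quantile normalization (0.042), was 0.014 without mock leaf library 2, and ranged from -0.21 to 0.065 with single libraries left out. That of BIPINNATA ranged from -0.29 (without mock leaf library 2) to 2.02, and that of PHANTASTICA from -0.24 to 0.21, with 0.046 at equal library totals. Between the mock groups, the value of Solyc03g006880 (GA20ox1) was 0.31 after quantile normalization and 0.41 with the replicate block. The cause of these turns was not tested.

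The 593 root calls became 391 after quantile normalization and 1141 with root fitted alone, and 93 to 370 with single root libraries left out. The 1494 leaf calls became 900 without picloram library 2, and the 485 calls for the difference became 239 to 307 without single root libraries. With both root libraries numbered 2 left out there were 252 root calls and 228 for the difference. Equal library totals put 61.8% of leaf calls above mock in place of 48.2%. Replicate numbers did not pair the leaf samples, where deviations of same-numbered libraries had correlations of 0.0944, -0.000826 and 0.0222. In root, 2 pairs (correlation 0.110) are too few to settle pairing, although the leaf marker sum followed the number. With the replicate block the members called were 2, 0, 1 and 4. Depth limits each member except Solyc07g007120 in leaf, since all other values lie below 50 normalized counts.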
